A study of Macaca fascicularis with 2 samples.

Results

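Immediate early response genes were examined in gastrocnemius muscle, a calf muscle, of the cynomolgus macaque (Macaca fascicularis). The set is a list of 40 gene symbols of this class, and all 40 were found among the 28174 genes of the files, with CYR61 and CTGF also known as CCN1 and CCN2. RNA sequencing gave 1 library labelled lean, from a chow diet, and 1 labelled non-lean, from a high fat diet. Age, sex, the length of the diet, the body measures behind "lean" and "non-lean", and whether a library stands for 1 animal or a pool are not stated in the labels. The stated purpose was to compare gene expression of muscle from lean and obese animals.

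Immediate early genes are switched on within minutes of a signal, from transcription factors that are already present in the cell, so that no new protein is needed first. Growth factors, stretch, contraction, injury and cytokines reach them through mitogen-activated protein kinases (MAPK), serum response factor (SRF) and cAMP response element binding protein. Many of their messages are unstable, and many of their products are transcription factors or feedback inhibitors. In skeletal muscle they are known to respond to exercise.

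As each group is a single library, no spread between replicates could be had and no test was run, and each difference compares these libraries and not the conditions. The lean library held 15983348 counts and the non-lean library 12731974. Levels are in CPM, counts per 1000000 counts after scaling of both libraries, and 1 count was worth 0.0657 CPM in the lean library against 0.0748 in the other. Differences are log2 ratios, non-lean divided by lean, and the 95% intervals in square brackets cover counting error only. Genes with a mean of at least 1 CPM are called tested genes, and there were 13706. A gene counts as at least 2-fold lower or higher where the difference was that large and its interval was free of 0, and smaller differences are given with their size or interval. Skeletal actin (ACTA1) and the muscle creatine kinase (CKM), which define skeletal muscle fibres, had 1223115 and 424516 counts in the lean library and 804023 and 250549 in the non-lean library.

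Of the 37 tested immediate early genes, 26 had an interval below 0, most of them with a difference under 2-fold, and a small group was further apart. SOCS3 was 10.6-fold lower, FOSB 6.65-fold, FOS 5.66-fold, EGR1 5.35-fold, JUNB 4.15-fold, MYC 3.04-fold and ZFP36 2.30-fold. These 7 of the 37 tested members were at least 2-fold lower, while 7.16% of all tested genes were. None of the 37 was at least 2-fold higher, and 4.91% of all tested genes were. Beside the 26 members with intervals below 0, 5 had one above 0 and 6 held 0, whereas 28.8% of all tested genes had an interval below 0 and 25.7% one above 0. The median log2 ratio of the 37 was -0.55, with quartiles of -0.90 and -0.25, and that of all tested genes was -0.01. The members were chosen with earlier results of these data known, so these shares and medians describe the list and are not a test. The 3 members under the CPM minimum were EGR2, DUSP2 and DUSP5.

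**Figure D1:**
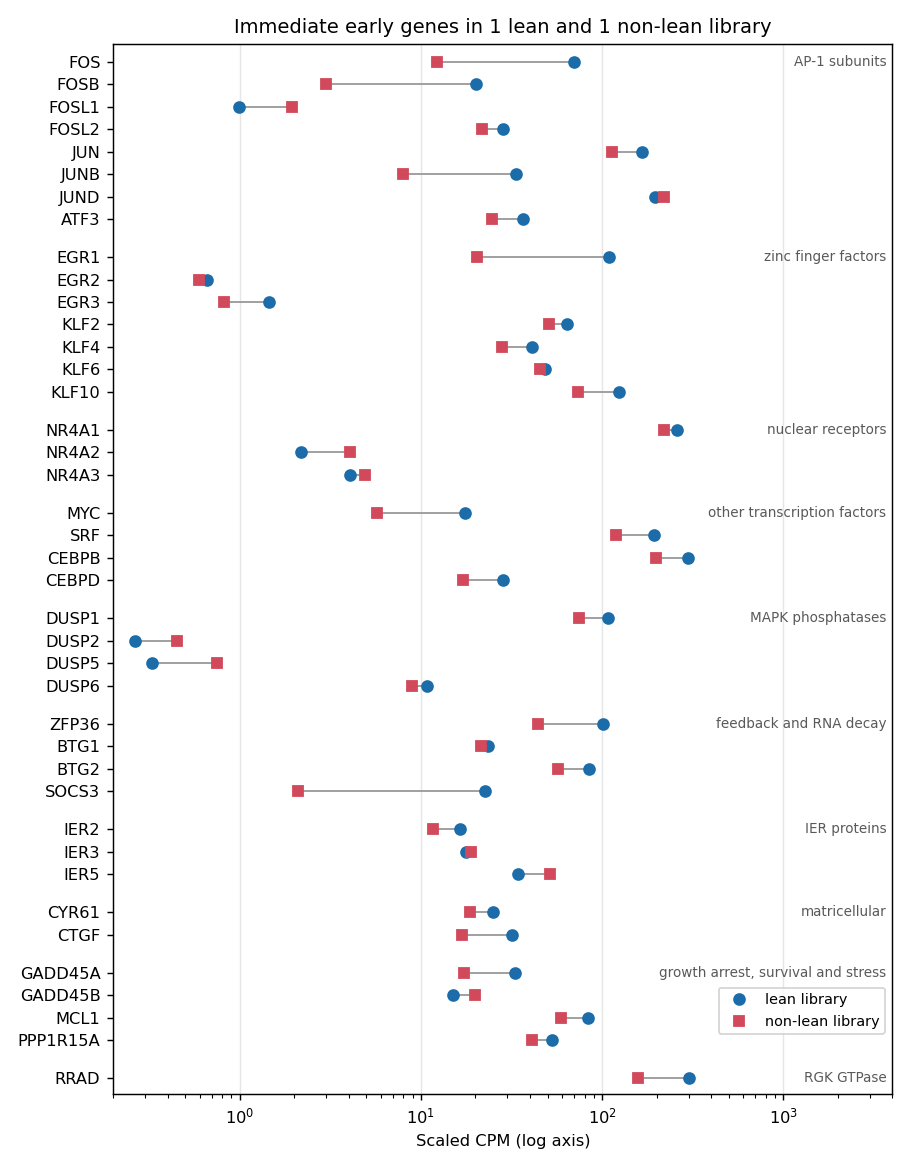
Scaled CPM on a log axis of each of the 40 immediate early genes in the lean library (circles) and the non-lean library (squares), ordered by role, with no error bars because each group has 1 library. The long gaps to the left belong to FOS, FOSB, JUNB, EGR1, MYC, ZFP36 and SOCS3, and FOSL1, JUND, NR4A2, NR4A3, DUSP2, DUSP5, IER3, IER5 and GADD45B have their square to the right.

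The AP-1 dimer is typically built from a FOS or ATF protein and a JUN protein, and its 8 listed genes went apart most. FOS, the founding member, had 1059 lean and 164 non-lean counts, which is 69.6 and 12.3 CPM and a log2 ratio of -2.50 [-2.75, -2.27]. FOSB, its close relative, had 306 and 40 counts, or 20.1 and 2.99 CPM, a ratio of -2.73 [-3.26, -2.27]. In the order of the 13706 tested genes from the lowest ratio up, FOSB stood at 54 and FOS at 84. The Fos-related antigen FOSL2 was much closer, with 430 and 290 counts and a ratio of -0.38 [-0.60, -0.16]. FOSL1, the other Fos-related antigen, went the other way, with 15 and 26 counts, 0.986 and 1.94 CPM, and a ratio of 0.96 [0.01, 2.0]. That ratio rests on 41 counts and its interval reaches almost to 0.

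Among the JUN genes, JUNB was set apart from JUN and JUND. JUNB had 507 and 107 counts, 33.3 and 8.0 CPM, and a ratio of -2.05 [-2.37, -1.75]. JUN, the partner of FOS in the classical dimer, had 2518 and 1511 counts, 165 and 113 CPM, and was 1.46-fold lower. JUND, which is known for a steady level in resting cells, had 2994 and 2918 counts, 197 and 218 CPM, and a small positive ratio of 0.15 [0.08, 0.22]. ATF3, a stress-induced partner and repressor, had 554 and 328 counts and was 1.48-fold lower. Of the 8 AP-1 genes, 6 thus had intervals below 0 and 2 above, beside 28.8% and 25.7% of all tested genes, and their summed level was 551 CPM in lean and 403 CPM in non-lean muscle.

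The make-up of both families therefore differed between the libraries. FOS gave 58.5% of the counts of the 4 FOS genes in the lean library (56.2 to 60.8, 95% Clopper-Pearson) but 31.5% in the non-lean one (27.6 to 35.7). FOSL2 gave 23.8% (21.8 to 25.8) and 55.8% (51.4 to 60.1), so that the leading gene by counts was FOS in the first and FOSL2 in the second. JUNB gave 8.42% (7.73 to 9.15) and 2.36% (1.94 to 2.84) of the counts of the 3 JUN genes, and JUND 49.7% (48.5 to 51.0) and 64.3% (62.9 to 65.7). These shares are not corrected for transcript length, so they compare a gene between the libraries and not the genes with each other.

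**Figure D2:**
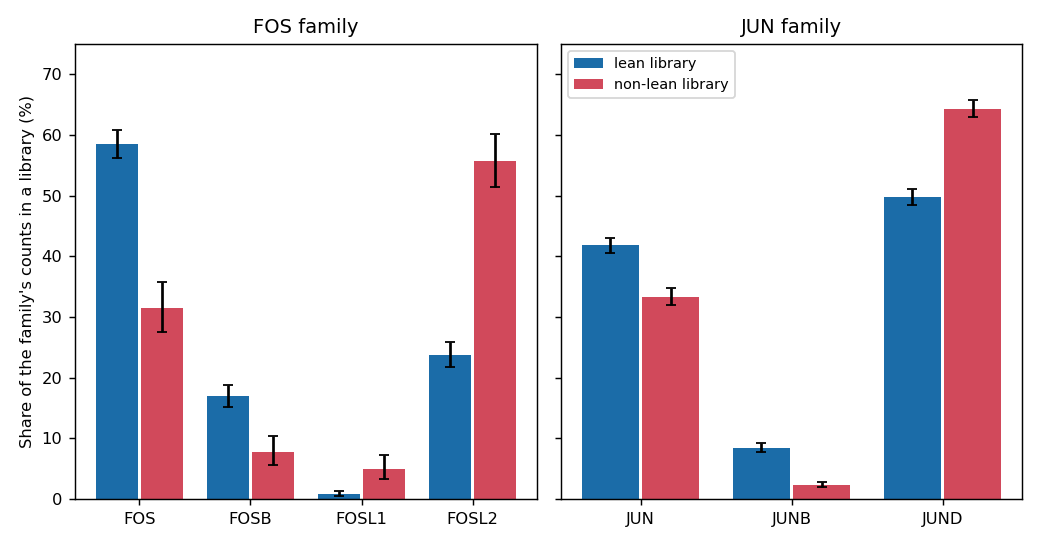
Share of a family's counts, in percent, taken by each FOS gene (left) and each JUN gene (right) in the lean and the non-lean library, with 95% Clopper-Pearson intervals as bars. FOS goes from 58.5% to 31.5% and FOSL2 from 23.8% to 55.8%, and JUND from 49.7% to 64.3%.

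Among the zinc finger factors EGR1 stood far from the rest. EGR1, which is induced through SRF and activates growth and matrix genes, had 1665 lean and 273 non-lean counts, or 109 and 20.4 CPM, a ratio of -2.42 [-2.61, -2.24]. EGR2 and EGR3 were scarce in both libraries, with 10 and 8 counts for EGR2 and 22 and 11 for EGR3. At that depth no difference could be seen for either, and the interval of EGR3, at -0.78 [-2.01, 0.29], would allow anything from a 4.01-fold lower to a 1.22-fold higher level. KLF10, a factor induced by transforming growth factor beta, had 1897 and 986 counts and was 1.69-fold lower. KLF4 was 1.46-fold lower, with 627 and 376 counts, and KLF2, best known as the shear stress factor of endothelium, 1.25-fold lower, with 970 and 683 counts. KLF6, an injury-induced relative, had 738 and 611 counts and a ratio of -0.09 [-0.24, 0.07].

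The NR4A orphan nuclear receptors did not share the low ratios of FOS and EGR1. NR4A1, which is induced in muscle by exercise and by adrenergic signals, had 3939 and 2920 counts, 259 and 218 CPM, and a ratio of -0.25 [-0.31, -0.18]. NR4A2 was 1.85-fold higher in the non-lean library, at 33 and 54 counts and a ratio of 0.89 [0.25, 1.57]. All 33 counts in the lean library, and 51.1 of the estimated counts in the non-lean library, were assigned to a transcript model of NR4A2 that RefSeq marks as a non-coding RNA. NR4A3 had 62 and 66 counts and a ratio of 0.28 [-0.25, 0.80], which holds 0.

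The 4 other transcription factors of the list all had intervals below 0, and MYC alone was at least 2-fold lower. Of all tested genes, 28.8% had an interval below 0 and 7.16% were at least 2-fold lower. MYC, a regulator of growth and ribosome production, had 268 and 77 counts, 17.6 and 5.76 CPM, and a ratio of -1.61 [-2.0, -1.24]. SRF itself, which binds the promoters of FOS and EGR1 and of muscle actin genes, had 2930 and 1589 counts and was 1.62-fold lower, at -0.70 [-0.79, -0.61]. The intervals of FOS and EGR1, which SRF is known to drive, lay wholly below that of SRF. That of the muscle actin gene ACTA1, at -0.42, lay wholly above it. CEBPB and CEBPD, factors of the acute phase response and of fat cell formation, were close to each other, 1.51-fold and 1.67-fold lower. Their counts were 4538 and 2647 for CEBPB and 432 and 227 for CEBPD.

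**Figure D3:**
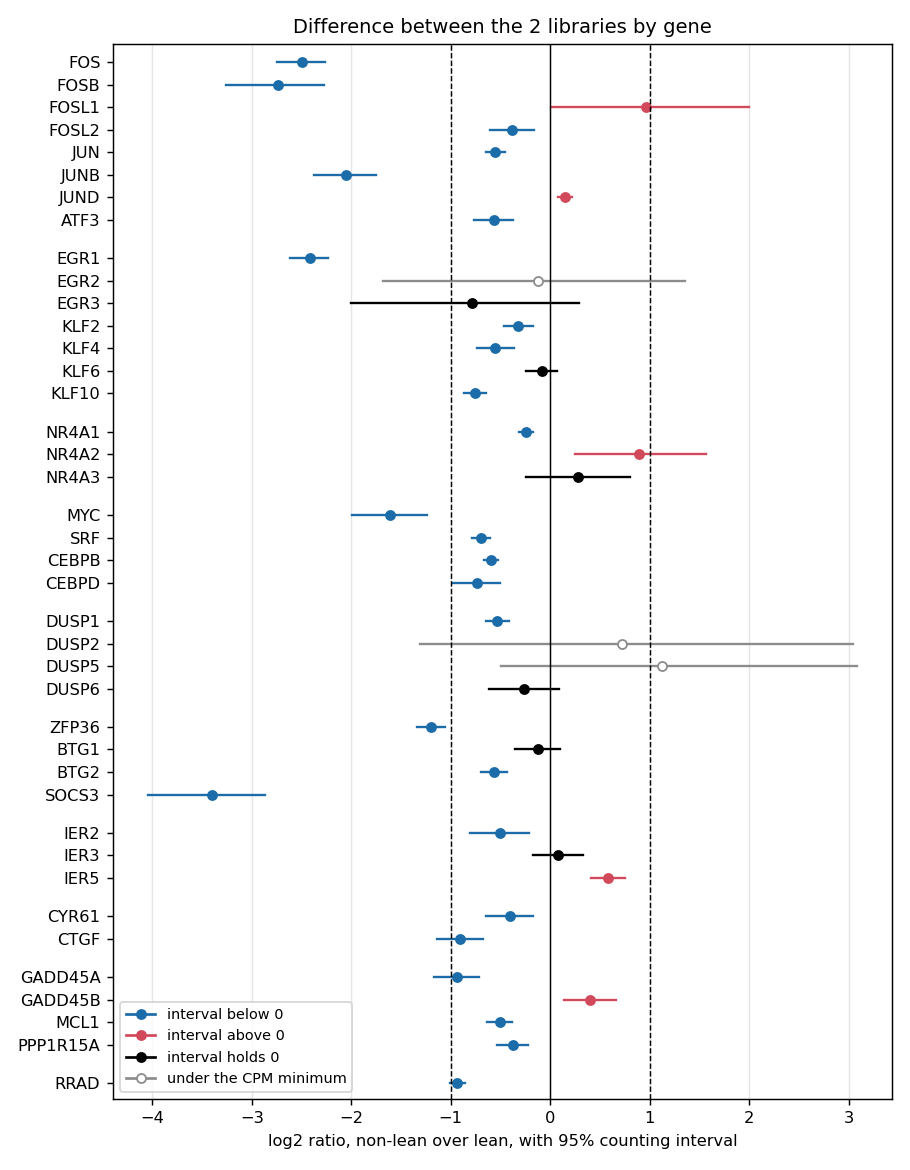
Each of the 40 genes by its log2 ratio (non-lean over lean), with its 95% counting interval. Dashed lines mark 2-fold, and colours mark whether the interval lies below 0, above 0 or holds 0, with open circles for EGR2, DUSP2 and DUSP5, which had a mean under 1 CPM. SOCS3, at -3.40, is the lowest and FOSL1, at 0.96, the highest of the tested members.

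Feedback genes held the furthest member of all. SOCS3, which is induced by STAT3 and blocks the receptors of the interleukin 6 family, had 22.5 CPM in lean and 2.09 CPM in non-lean muscle, from 343 and 28 counts. Its ratio of -3.40 [-4.04, -2.87] was at place 22 from the lowest of 13706. ZFP36 (tristetraprolin), which binds AU-rich messages and starts their decay, had 1543 and 590 counts, 101 and 44.1 CPM, and a ratio of -1.20 [-1.34, -1.06]. BTG2, an antiproliferative partner of the deadenylase complex, was 1.48-fold lower with 1284 and 761 counts. Its paralogue BTG1 had 355 and 286 counts and a ratio of -0.12 [-0.36, 0.10].

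The dual specificity phosphatases, which switch MAPKs off, were closer between the libraries than FOS and EGR1. DUSP1, which acts on p38, JNK and ERK, had 1638 and 996 counts, 108 and 74.5 CPM, and a ratio of -0.53 [-0.65, -0.42]. DUSP6, which is specific for ERK, had 164 and 120 counts and a ratio of -0.26 [-0.62, 0.08]. DUSP2 had 4 and 6 counts and DUSP5 had 5 and 10, too few to show a difference.

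The IER genes went in different directions. IER2 was 1.42-fold lower, with 251 and 155 counts. IER3, an inhibitor of apoptosis in many cells, had 271 and 252 counts and a ratio of 0.08 [-0.17, 0.33]. IER5 was 1.5-fold higher in the non-lean library, with 522 and 686 counts, 34.3 and 51.3 CPM, and a ratio of 0.58 [0.41, 0.75]. IER5 thus had the highest ratio of any member with 100 or more counts in both libraries.

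Both matricellular genes had intervals below 0, as had 28.8% of all tested genes, and differences under 2-fold. CTGF, which promotes matrix deposition, had 482 and 226 counts and was 1.87-fold lower, at -0.90 [-1.14, -0.68]. CYR61, a related integrin ligand, had 378 and 250 counts and was 1.33-fold lower.

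Genes of growth arrest, survival and stress split within a family. GADD45A, a stress sensor of the p53 response, had 502 and 230 counts, 33.0 and 17.2 CPM, and was 1.92-fold lower. GADD45B, its relative, was 1.32-fold higher, with 230 and 266 counts, 15.1 and 19.9 CPM, and a ratio of 0.40 [0.14, 0.66]. The intervals of this pair do not meet, since that of GADD45A ran from -1.17 to -0.71. MCL1, a short-lived survival protein of the BCL2 family, was 1.42-fold lower with 1276 and 788 counts. PPP1R15A, which directs a phosphatase to the translation factor eIF2, was 1.3-fold lower with 806 and 545 counts.

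RRAD, a small GTPase of muscle that restrains calcium channels, had 4578 lean and 2106 non-lean counts. This is 301 and 157 CPM, a 1.91-fold lower level with a ratio of -0.93 [-1.01, -0.86]. RRAD thus lay just short of the 2-fold limit, together with GADD45A and CTGF.

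Summed over the 40 genes, the level was 2704 CPM in lean and 1811 CPM in non-lean muscle, 1.49-fold lower. Without RRAD, CEBPB, NR4A1, JUND or SRF, the 5 members with most counts in the lean library, left out 1 at a time, the sum was 1.45-fold to 1.57-fold lower. With all 5 left out it was 1.62-fold lower.

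The strongly lower members had neither the fewest nor the most reads. Among the 19 members with a mean of 10 to 50 CPM, 5 were at least 2-fold lower, where 4.4% of the 5042 tested genes of that range were. Of the 13 members at 50 CPM or more, EGR1 and ZFP36 were, where 3.53% of 2407 genes were, and 12 of the 13 had an interval below 0, against 41.9% of those genes. None of the 5 tested members under 10 CPM had an interval below 0 and 2 had one above, where 22.1% and 17.9% of the tested genes of that range did, so that so few members show little. CPM sorts genes here by read number, which also depends on transcript length.

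**Figure D4:**
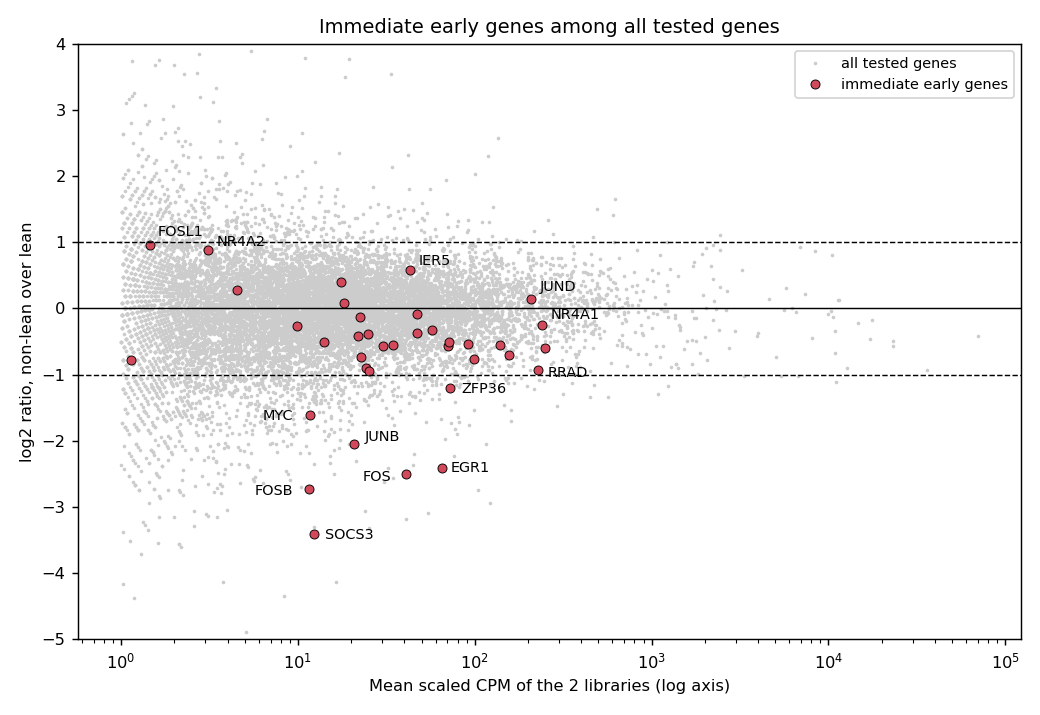
Mean scaled CPM of both libraries (log axis) against the log2 ratio (non-lean over lean) for the 13706 tested genes (grey) and the 37 tested immediate early genes (red), with dashed lines at 2-fold; 31 tested genes lie outside the plotted range. SOCS3, FOSB, FOS, EGR1, JUNB, MYC and ZFP36 lie below the lower dashed line, and none of the red points lies above the upper one.

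Several members have more than 1 transcript model in the files, and 11 of the 40 had counts on at least 2. FOSB differed most. Of its lean counts 96.7% were assigned to one model, which had 296 estimated counts there and 0 in the non-lean library, where all 40 counts fell on the other model. FOSL1 had 74.3% and 48.3% of its counts on its first model, on few reads. The models of KLF4 kept nearly the same shares, with 47.2% and 46.9% on one of them, and SRF had 99.6% and 99.3% on a single model. Such shares are estimates that divide reads common to both models, and they carry no interval.

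Other genes of the same pathways were read from further lists. Beside the counts of intervals in all lists that follow, 28.8% of all tested genes had one below 0 and 25.7% one above. Of the 30 kinases of the MAPK cascade, 16 had intervals below 0 and 5 above, with a median of -0.14. A list of SRF partners and CREB coactivators had 6 of 10 below and none above, with a median of -0.32. Split after the values were seen, the 5 tested SRF partners had 4 intervals below 0 and a median of -0.86, and the 5 CREB coactivators 2 below and a median of -0.13. The ternary complex factors ELK3 and ELK1, which carry the ERK signal to SRF, were lowest at -0.95 and -0.88, and ELK4 stood at 0.07 [-0.20, 0.34]. Other basic leucine zipper factors related to AP-1 had 10 of 19 below and 3 above, with a median of -0.21. ATF5 at -2.37 and MAFK at -1.29 were the lowest of them. Other KLF genes had 5 of 9 below and none above, with a median of -0.49, and other MAPK phosphatases and feedback inhibitors 6 of 12 below and none above, with a median of -0.16.

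The relatives of ZFP36 and SOCS3 included further low genes. ZFP36L2 and ZFP36L1, which bind the same AU-rich messages, were the lowest of the 17 tested genes of their list, at -1.06 and -0.89, while the list median was -0.06. In the SOCS, JAK and STAT list, 11 of 19 intervals lay below 0 and 2 above, with a median of -0.36. SOCS6 was highest at 0.41 [0.12, 0.71], followed by SOCS2 at 0.34 [-0.18, 0.86]. BCL3 and STAT5B were lowest, at -1.67 and -1.43, although STAT5B shares sequence with STAT5A, which was not matched and is not analysed here, and the STAT5-induced inhibitor CISH had 1636 and 713 counts and a ratio of -1.01. STAT3, named after its values were seen because it is the known inducer of SOCS3, had 1373 and 656 counts and a ratio of -0.88 [-1.02, -0.74]. Interleukin 6 itself, also named after its values were seen, had 5 and 2 counts, too few to compare.

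Other lists around the members had medians from -0.61 to 0.12. Other CCN genes and target genes of the YAP coactivator were at the low end, with 13 of 20 intervals below 0, 4 above and a median of -0.61. Of these 20, 8 were at least 2-fold lower, beside 7.16% of all tested genes. ANKRD1, a stretch-induced muscle protein, had 7366 and 2960 counts there and a ratio of -1.13, and CCN3 was lowest at -2.03. GADD45G, the third GADD45 gene, stood at -0.72, in a list of 7 with 1 interval below 0 and 1 above and a median of -0.11. The calcium channel and RGK list had 3 of 6 below, none above and a median of -0.39, and GEM, a relative of RRAD, had 21 and 22 counts and a ratio of 0.25 [-0.68, 1.19]. The MYC network had 3 of 8 below, none above and a median of -0.10, and the BCL2 family 6 of 12 below, 2 above and a median of -0.12. Relatives and partners of the EGR and NR4A genes had 3 of 5 below and none above, with a median of -0.25, and RXRA, a partner of NR4A1, was lowest at -1.17. Other C/EBP genes and their regulators had 2 of 6 below, 3 above and a median of 0.12.

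Stimulus-induced genes outside the 40 went both ways. Of 25 tested, 10 had intervals below 0 and 5 above, with a median of -0.11. RGS2 and PLK2 were lowest, at -1.66 and -1.08, and MAP3K8 and ID1 highest, at 1.77 and 0.57. Feedback genes of NF-kB had 3 of 10 below and 1 above, with a median of -0.04, and the inhibitor NFKBIA, itself quickly induced, had 816 and 754 counts and a ratio of 0.07 [-0.07, 0.22]. Of 19 listed exercise and heat stress genes, 14 were matched, and HSPA1A, HSPA1B, HSPE1, MT1X and MT2A were not. The matched genes had 2 of 14 below and 6 above, with a median of 0.10, and HMOX1, haem oxygenase, was the highest of them at 1.09. The difference between these medians and that of the members was not tested.

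**Figure D5:**
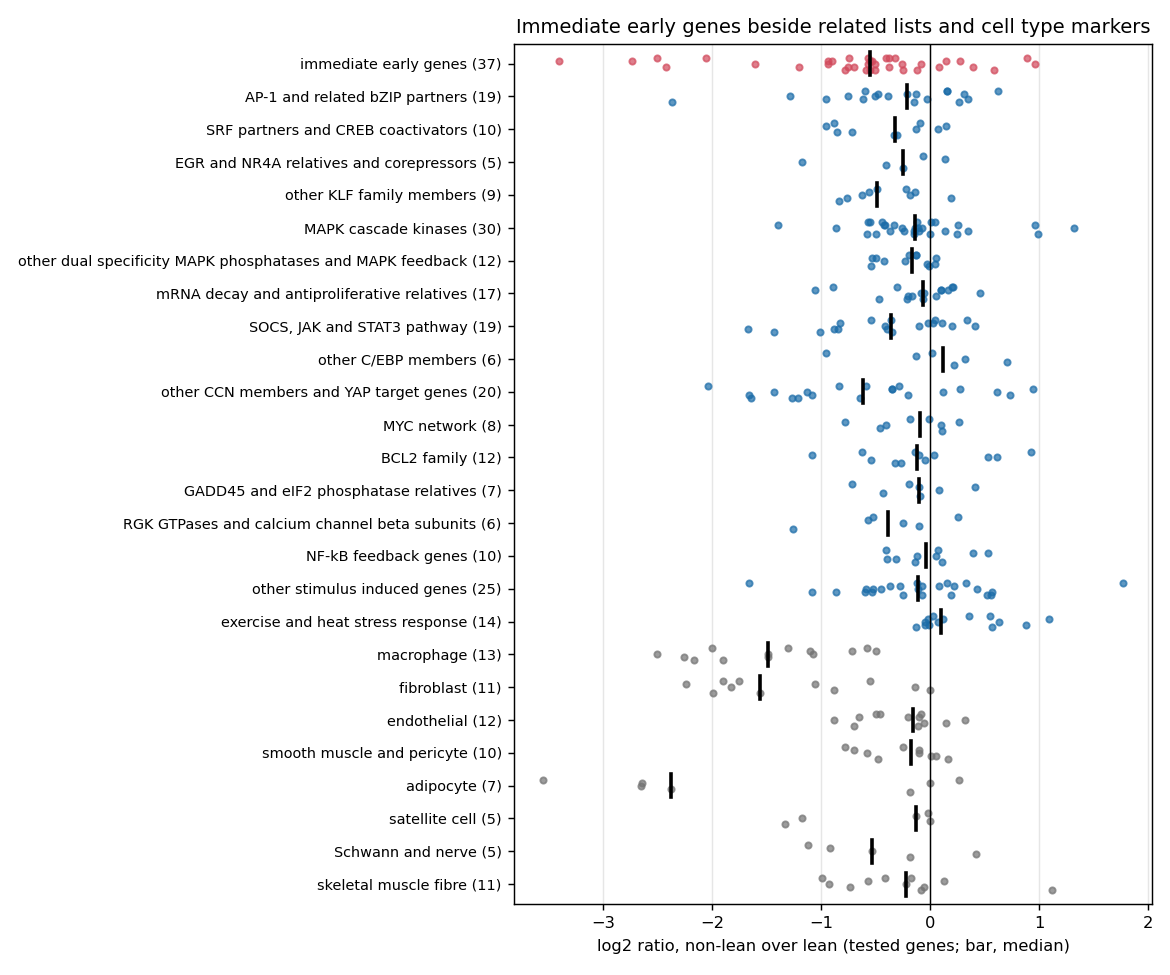
Tested genes of each list by log2 ratio (non-lean over lean), for lists with 5 or more (number in brackets), with a black bar at the list's median. The immediate early genes (top, median -0.55) have a long tail to the left, while NF-kB feedback genes have a median of -0.04. The 14 exercise and heat stress genes that were matched, of 19 listed, have a median of 0.10 and reach from -0.13 to 1.09.

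Markers of interstitial cells also differed between the libraries. Of 13 tested macrophage markers, 10 had intervals below 0 and none above, and the summed level of the 14 was 142 CPM in lean and 44.1 CPM in non-lean muscle. Fibroblast markers had 9 of 11 below and none above and a sum of 1879 and 1019 CPM, with POSTN at 0 counts in the non-lean library. Adipocyte markers had 5 of 7 below and 1 above, with a median of -2.38 and 4 at least 2-fold lower. Their sum of 194 and 174 CPM was mostly that of CFD, at 108 and 109 CPM, while ADIPOQ had 46 and 3 counts. At least 2-fold lower were also 10 of the 13 macrophage and 7 of the 11 fibroblast markers, beside 7.16% of all tested genes. None of the endothelial or smooth muscle and pericyte markers was. Endothelial markers had 6 of 12 below and 1 above (409 and 356 CPM), and smooth muscle and pericyte markers 5 of 10 below and 1 above (316 and 258 CPM). Satellite cell markers had 3 of 5 below and none above, and 2 of the 5, NCAM1 and DLK1, were at least 2-fold lower. Their sum of 158 and 124 CPM was mostly that of MYOD1, at 113 and 103 CPM. PAX7, which was under the CPM minimum, had 15 and 2 counts. Nerve and Schwann cell markers had 2 of 5 below and none above (103 and 54.5 CPM), with 1 at least 2-fold lower. Lymphocyte markers had 3 of 4 tested below and 1 above and summed to 16.5 and 7.40 CPM, with MS4A1 and CD79A at 0 in both libraries. Most of the lean sum was CD4, at 8.94 CPM against 1.94 CPM in the non-lean library. GZMB, with 8 and 21 counts, had its interval above 0. CD3E had 14 and 11 counts, CD3D 7 and 6, and CD8A 7 and 6, too few to show a difference. Neutrophil markers summed to 1.25 and 2.39 CPM with CXCR2 at 0 in both and MPO at 0 in the non-lean library, and erythroid markers to 3.88 and 5.38 CPM with SLC4A1 at 0 in both and ALAS2 at 0 in the lean library. The 11 skeletal muscle fibre markers also went apart, with 9 intervals below 0, 2 above and a median of -0.22. Above 0 were TNNT1, at 1.11 and thus past the 2-fold limit, and TNNC2, at 0.12. RYR1 and MYH1 were lowest, at -0.99 and -0.93, both short of that limit. The fibre markers summed to 227951 CPM in lean and 169993 CPM in non-lean muscle. The part of these cells in the levels of the immediate early genes was not tested, and in whole muscle fewer cells of a type and less RNA per cell cannot be told apart.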

How the data were processed

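Gastrocnemius RNA was sequenced in 1 lean and 1 non-lean library. Per the labels' protocols, oligo(dT)-selected RNA was fragmented, copied from random hexamers and read on a BGISEQ-500 instrument, with no step named that marks strand, so reads of overlapping or antisense genes cannot be told apart. The deposited values are expected counts, estimated read numbers per RefSeq transcript per the file headers, with 76183 transcript rows in each file. Among the tools, per the submitters' processing notes, were RSEM 1.3.3, STAR 2.7.8a and Trim Galore 0.6.6, with no role given, and the build is not given in the sources used here.

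Values of a gene's transcripts were added up and rounded to whole counts. Placeholder, older and date-like symbols took current names from a RefSeq gene table (assembly T2T-MFA8v1.1) where a match was found. Others, among them some date-like symbols, stayed as written. Scaling factors were 0.952 (lean) and 1.05 (non-lean), from the TMM method of edgeR 4.0.16 (R 4.3.3), which trims M-values and averages the rest. Log2 ratios used a prior count of 0.5, and intervals are exact 95% Clopper-Pearson intervals of the split of the summed count (scipy 1.17.1). The intervals cover counting error only, as each group has 1 library. The amplified reads carry no molecular identifiers and may repeat a molecule, so the intervals may be too narrow even for that error. The calculation was tested on simulated data. Figures used matplotlib 3.10.9.

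The 40 members and all lists were chosen with earlier results of these data known. Every member could be named, and of each other list the 2 highest, the 2 lowest and the 2 genes with most counts, and every cell marker. The alternatives were total count scaling, DESeq2 1.42.0 size factors, no filter, a minimum of 5 CPM, a prior count of 2, unrounded counts and symbols as written in the files. No sequences of these genes were used here.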

Additional observations from a re-analysis of the deposited data

How the results depend on the processing

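No paired analysis was possible because each group has 1 library, and no library could be left out for the same reason. The 7 members at least 2-fold lower numbered 7 under each of the 7 alternatives. With total counts the median of all tested genes moved from -0.01 to 0.13, the median of the members was -0.41 and 2 members, FOSL1 and NR4A2, were at least 2-fold higher; 5.33% of all tested genes were then lower and 6.78% higher. With a minimum of 5 CPM, 33 members remained tested and 3 had intervals above 0. The interval of FOSL1 held 0 with DESeq2 size factors, at 0.93. All other intervals of single tested members lay on the same side of 0, or held it, under the alternatives in which the member was tested. Depth limited EGR2, EGR3, DUSP2 and DUSP5, which had 33 counts or fewer in all.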
